A study of Mus musculus with 6 samples.

Results

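Nuclear genes for the subunits of oxidative phosphorylation were picked from the count table of the arcuate nucleus (ARC) by their symbols alone. The symbols taken were those that begin with Nduf, a subunit letter and a number, the 4 Sdh genes, and all that begin with Uqcr, with Cox4 to Cox8 or with Atp5. This gave 83 of 24015 symbols. By symbol, 36 were assigned to complex I, 4 to complex II, 8 to complex III, 18 to complex IV and 17 to complex V. An alternative assignment by biochemistry, used further on, moved *Ndufa4* to complex IV and left out *Cox7a2l*, *Atp5s* and *Atp5sl*. It also added *Cyc1* to complex III and *Ndufab1* to complex I. A filter on low counts left 77 of the 83 among the 15236 genes tested. The members that failed it were *Ndufs5* of complex I and *Cox4i2*, *Cox7a1*, *Cox7b2*, *Cox8b* and *Cox8c* of complex IV, and they are described by their counts.

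Oxidative phosphorylation is the chain of protein complexes in the inner mitochondrial membrane that turns the energy of nutrients into ATP. Complexes I and II take electrons from NADH and succinate, complex III passes them to cytochrome c, complex IV hands them to oxygen, and complex V, the ATP synthase, uses the proton gradient that the others build. Most subunits are encoded in the nucleus, and complexes I, III, IV and V also hold subunits encoded in mitochondrial DNA. Neurons depend on this chain for the energy of firing and synaptic transmission, and several subunits exist as a common form and as forms restricted to muscle, testis or lung.

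RNA was sequenced from microdissected ARC of adult female mice, 3 controls of genotype *Esr1fl/fl* and 3 mutants of genotype *Esr1fl/fl;Nkx2-1-Cre*, with a mixed background of CD-1, 129P2 and C57BL/6 in the labels, of which the methods name CD-1 and 129P2. Both genotypes carry the floxed alleles of *Esr1*, the gene of estrogen receptor alpha, and the mutants alone carry Cre, so loss of the receptor and presence of Cre cannot be told apart. The *Nkx2-1* promoter is active from development in cells across the mediobasal hypothalamus, including the ventromedial nucleus (VMH), so the deletion is limited neither to the ARC nor to 1 cell type. Nothing in the labels or methods pairs a mutant with a control or gives the age of a single mouse. The p-values set the difference between genotypes against the spread within genotypes in these 6 samples.

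*Esr1* had levels of 64.5, 57.5 and 48.5 CPM (counts scaled to library size after TMM normalization) in controls and 11.8, 9.55 and 7.06 CPM in mutants, each in the order of the replicate numbers used throughout. The genotypes were far apart (log2 fold change -2.59, standard error 0.18), with an adjusted p of 0.000884 from edgeR. Total counts ran from 11792440 to 17877137 per sample, and the members took between 0.481% and 0.541% of them. The ARC peptide genes *Agrp* (26.3 to 40.0 CPM) and *Pomc* (145 to 267 CPM) were present in all 6 samples. *Fezf1*, a marker of the VMH, was at 1.14 CPM in control replicate 1 and 9.90 CPM in mutant replicate 1 but between 24.2 and 52.3 CPM in the other 4 samples. Markers of glia also differed: the 10 oligodendrocyte markers summed to between 697 and 1317 CPM in controls and between 1716 and 1863 CPM in mutants, with all 10 higher in every mutant than in every control, and the 9 microglia markers summed to 215 to 235 CPM against 289 to 308 CPM, with 5 of 9 separated in that way. The summed levels of the 9 neuron markers (3608 to 4746 CPM in controls, 3957 to 5544 CPM in mutants), the 8 astrocyte markers (4049 to 6865 against 4393 to 6370 CPM) and the 8 endothelial markers (118 to 148 against 135 to 163 CPM) overlapped between genotypes. No marker was at 0 in any sample. The part of these differences in the values below was not tested.

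The mutants did not differ detectably from the controls in the nuclear-encoded oxidative phosphorylation genes. EdgeR's quasi-likelihood test called 0 of the 77 tested members at an adjusted p under 0.05, against 18 of 15236 tested genes (0.118%). The smallest adjusted p of a member was 0.560, that of *Atp5l*. DESeq2, limma voom and a fit with the replicate number as a block also called 0 members. At an unadjusted p under 0.05 there was 1 member higher in the mutants, again *Atp5l*, and 0 lower, against 4.84% of all tested genes higher and 4.01% lower. The 3 mutants lay wholly above the 3 controls for 3 members, *Atp5l*, *Cox5a* and *Cox6c*, and wholly below for 1, *Cox7c*, whereas 7.88% of all tested genes were separated upward and 7.88% downward. Of the 77 members, 44 had a log2 fold change above 0, against 51% of all tested genes. In bulk tissue, a change in the number of cells and a change in the RNA of each cell cannot be told apart.

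By complex, the median log2 fold change of mutant over control was -0.0014 for the 35 tested members of complex I, 0.017 for the 4 of complex II, 0.043 for the 8 of complex III, -0.0046 for the 13 of complex IV and 0.069 for the 17 of complex V. Over all 77 members it was 0.017, with quartiles of -0.035 and 0.069, and over all 15236 tested genes it was 0.0036, with quartiles of -0.107 and 0.154. Complex V had the most one-sided signs, with 14 of 17 members above 0, and complex I was near balance, with 16 above and 19 below. The SD of the sample medians within a genotype was between 0.041 (complex III) and 0.095 (complex II) on the log2 scale. The medians of complexes I, II and IV were smaller than their own spread. Those of complex III (0.043 against 0.041) and complex V (0.069 against 0.060) were slightly above theirs. This SD describes single samples and is not the error of a difference between genotypes. Without mutant replicate 2 the median of complex V was 0.023 and that of all members -0.016. Members of a complex are not replicates, and no test was run on these medians.

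The shift of the members in each sample was measured as the median over members of the log2 CPM less the gene's mean over the 6 samples. For all members it was -0.0036, -0.028 and 0.016 in controls, and -0.065, 0.083 and -0.0054 in mutants. The 2 ends of the range were both mutants, and the 3 controls lay between them. In complex I the shifts were 0.0068, -0.023 and 0.035 in the controls and -0.085, 0.064 and 0.0072 in the mutants. Complex II gave 0.074, 0.015 and -0.055 against -0.10, 0.13 and 0.0052. For complex III they were -0.024, -0.058 and 0.024 in the controls and 0.045, 0.061 and -0.018 in the mutants. Mutant replicate 2 was the highest sample in each of these complexes, and mutant replicate 1 the lowest in complexes I and II. Complex IV stood at 0.0016, -0.033 and 0.014 in the controls and at -0.056, 0.12 and 0.0094 in the mutants. In complex V the controls were at -0.037, -0.0067 and -0.068 and the mutants at -0.024, 0.12 and -0.015. Here too mutant replicate 2 was highest, and in no complex were the genotypes separated. Without mutant replicate 1 the median log2 fold change of complex IV was 0.092, and without mutant replicate 2 it was -0.064.

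**Figure D1:**
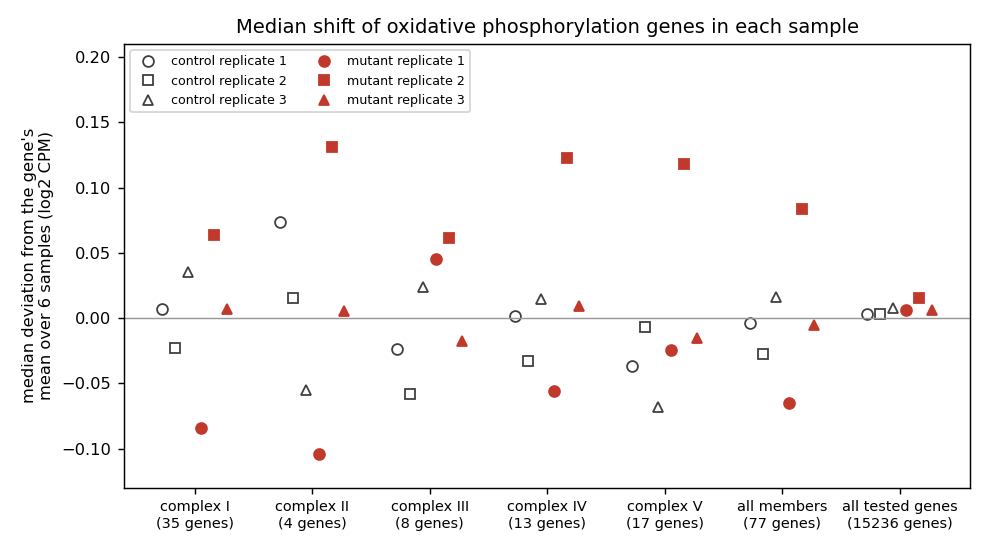
The vertical axis gives, for each sample, the median deviation of a complex's tested members from their own means over the 6 samples (log2 CPM), and the last column gives the same for all 15236 tested genes. Open symbols are controls and filled red symbols mutants, with the symbol shape marking the replicate number. Mutant replicate 2 is the highest point in each of the 5 complexes, and the ranges of the genotypes overlap in each.

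Complex I begins with the subunits that bind NADH and carry its electrons. *Ndufs1*, the large iron-sulfur subunit of the NADH-oxidising arm, was at 92.5, 97.5 and 95.5 CPM in controls and 91.4, 88.6 and 102 CPM in mutants, so the genotypes interleaved (log2 fold change -0.017, standard error 0.084, adjusted p = 0.977, edgeR). The largest negative change of the complex was in *Ndufs6*, a small accessory subunit, at 14.9, 17.9 and 19.7 CPM in controls and 12.9, 14.95 and 16.0 CPM in mutants. The ranges overlapped only in part, and the change did not pass the test (log2 fold change -0.26, standard error 0.15, adjusted p = 0.655, edgeR). *Ndufa11*, an accessory subunit embedded in the membrane arm, had the largest positive change, 14.7, 16.3 and 12.6 CPM against 13.04, 18.3 and 16.1 CPM, with a control as its lowest sample and a mutant as its highest (log2 fold change 0.13, standard error 0.16). The other tested members of complex I had log2 fold changes between these, and 0 of the 35 were separated between genotypes. Of the 35, 30 had an absolute log2 fold change under 0.1.

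All 4 subunits of complex II, which is also succinate dehydrogenase of the citric acid cycle, are nuclear. *Sdha*, the flavoprotein that oxidises succinate, was at 399, 396 and 383 CPM in controls and 399, 411 and 403 CPM in mutants. The values of the 6 samples nearly coincided (log2 fold change 0.041, standard error 0.072). *Sdhb*, the iron-sulfur subunit, was at 41.0, 33.6 and 37.3 CPM against 34.1, 39.5 and 36.5 CPM. *Sdhc*, which anchors the complex in the membrane, was at 53.6, 59.9 and 55.3 CPM in controls and 53.8, 64.4 and 58.3 CPM in mutants. The other anchor, *Sdhd*, was at 64.5, 59.9 and 52.1 CPM against 49.5, 67.9 and 58.1 CPM. In each of the 4 genes the highest mutant was replicate 2 and the lowest was replicate 1. Their log2 fold changes lay between -0.022 (*Sdhb*) and 0.065 (*Sdhc*), with adjusted p of 0.899 or more from edgeR.

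In complex III, the core protein gene *Uqcrc2* was at 152, 148 and 157 CPM in controls and 145, 163 and 162 CPM in mutants. *Uqcrh*, the acidic hinge protein that helps cytochrome c dock, was at 69.1, 67.9 and 71.3 CPM against 72.9, 76.0 and 65.8 CPM. Neither gene set the genotypes apart, with a log2 fold change of 0.043 in each. The largest positive change was in *Uqcr11*, a small subunit at 6.83, 5.76 and 5.81 CPM in controls and 7.18, 5.47 and 8.13 CPM in mutants (log2 fold change 0.17, standard error 0.20, adjusted p = 0.860, edgeR). *Uqcrb*, a small subunit near the ubiquinone site, had the largest negative change, from 9.58, 7.39 and 9.83 CPM to 8.91, 8.92 and 7.59 CPM (log2 fold change -0.074, standard error 0.17). Both ends of the range were mutants in *Uqcr11* and controls in *Uqcrb*.

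Complex IV is the complex with the most alternative subunits, and the common forms carried nearly all of its signal. *Cox4i1*, the common form of the subunit that regulates the enzyme by ATP, was at 98.8, 96.3 and 103 CPM in controls and 79.5, 107 and 107 CPM in mutants. Mutant replicate 1 was the lowest sample by far, and the log2 fold change was -0.016 (standard error 0.12). Per kilobase of transcript its mean was 145 CPM, against 0.858 CPM per kilobase for *Cox4i2*, the form known from lung, whose counts were 13, 6 and 7 in the controls and 7, 6 and 16 in the mutants. *Cox6a1* stood at 150 CPM per kilobase on average and its muscle form *Cox6a2* at 1.35. *Cox6a2* had the lowest log2 fold change of all members, -0.99 (standard error 0.66, adjusted p = 0.721, edgeR), from 0.804, 0.582 and 2.22 CPM in controls and 0.165, 0.628 and 0.933 CPM in mutants. That value rested on control replicate 3, the highest sample, and mutant replicate 1, which was below the 0.248 CPM that 3 counts give at its depth. Without control replicate 3 the log2 fold change was -0.22, and without mutant replicate 1 it was -0.60.

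The remaining pairs of complex IV had the same order of levels. *Cox6b1* was at 30.8, 36.8 and 32.1 CPM in controls and 25.1, 38.5 and 39.0 CPM in mutants, with a mean of 66.7 CPM per kilobase, and *Cox6b2*, its testis form, was at 3.83 CPM per kilobase. *Cox7a2* (52.7 CPM per kilobase) was above *Cox7a2l* (30.7), whose product joins complexes III and IV into supercomplexes, and far above the heart and muscle form *Cox7a1* (1.26). *Cox7a1* was counted 11, 1 and 8 times in the controls and 5, 7 and 8 times in the mutants. *Cox8a* was at 65.0, 68.8 and 68.3 CPM in controls and 54.7, 70.7 and 63.4 CPM in mutants, 120 CPM per kilobase on average. Its muscle form *Cox8b* had 3, 0 and 0 counts in the controls and 0, 4 and 2 in the mutants, and *Cox8c* had a single count, in mutant replicate 3. *Cox7b2* had between 1 and 2 counts in every sample. A count of 0 allows up to 3 counts, or 0.175 to 0.248 CPM, a limit that covers counting error only. In each pair the gap between the common form and the minor form was wider than the spread over the 6 samples, and in none did the genotypes separate.

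**Figure D2:**
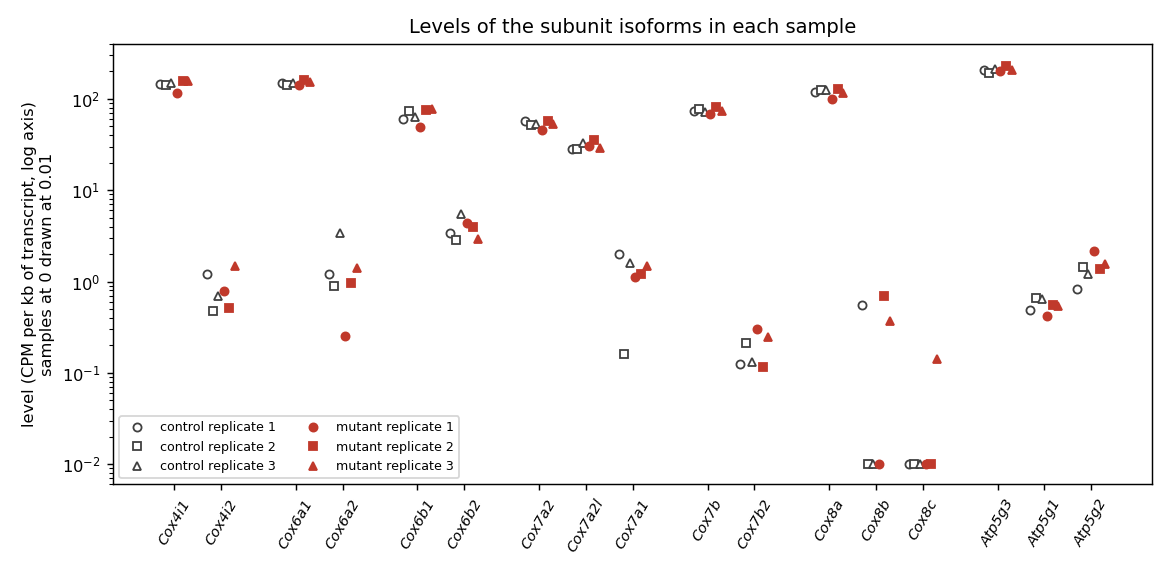
Each point is 1 sample, with the level in CPM per kilobase of transcript on a log axis, controls as open and mutants as filled red symbols, and samples at 0 drawn at the bottom of the axis. Within each group of alternative subunits the form at the left is the highest in every sample, as with *Cox4i1* over *Cox4i2* and *Atp5g3* over *Atp5g1* and *Atp5g2*. Of the 50-base windows of the coding sequence, 99.7% for *Atp5g1* and 100% for *Atp5g2* are also found elsewhere in the genome. The levels of these 2 genes are therefore uncertain.

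*Cox5a*, *Cox6c* and *Cox7c* were the members of complex IV with no overlap between genotypes. *Cox5a*, a structural subunit on the matrix side, was at 34.17, 34.0 and 31.7 CPM in controls and 34.24, 38.2 and 34.4 CPM in mutants, so the separation rested on a small gap between control replicate 1 and mutant replicate 1 (log2 fold change 0.098, standard error 0.096, adjusted p = 0.828, edgeR). *Cox6c*, a small membrane subunit, was at 27.7, 26.6 and 30.1 CPM against 32.4, 31.0 and 31.6 CPM (log2 fold change 0.17, standard error 0.097, adjusted p = 0.655, edgeR). For *Cox7c*, another small membrane subunit, the values were 2.61, 2.68 and 3.01 CPM in controls and 2.48, 2.20 and 2.53 CPM in mutants (log2 fold change -0.20, standard error 0.25, adjusted p = 0.869, edgeR). None of the 3 passed the test, and 38.7% of the exon bases of *Cox5a* lie within another annotated gene. Of the 50-base coding windows, 52.7% for *Cox6c* and 100% for *Cox7c* are also found elsewhere in the genome, against 5.10% for *Cox5a*. The levels and changes of *Cox6c* and *Cox7c* are therefore uncertain.

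In complex V, *Atp5b* and *Atp5a1* encode the beta and alpha subunits of the catalytic head. *Atp5b* had the highest level of all members, 1126, 1315 and 946 CPM in controls and 1019, 1133 and 1046 CPM in mutants. Its lowest and highest values were both controls, and its log2 fold change was -0.083 (standard error 0.12). *Atp5a1* was at 567, 569 and 542 CPM in controls and 573, 611 and 550 CPM in mutants, which overlapped (log2 fold change 0.047, standard error 0.079). At the other end, *Atp5l*, which encodes subunit g of the membrane part of the synthase, was at 0.871, 1.16 and 1.29 CPM in controls and 1.57, 2.32 and 1.80 CPM in mutants. All 3 mutants were above all 3 controls, by a log2 fold change of 0.78 (standard error 0.34) that did not pass the test over all genes (adjusted p = 0.560, edgeR). The gene lies on chromosome 9 at 44721333 to 44728825 (NCBIM37, minus strand), and every 50-base window of its coding sequence is found elsewhere in the genome too, as described further on.

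The proton-conducting ring of complex V is built from subunit c, which 3 genes encode. Their proteins end in the same 78 residues, which hold the mature subunit, while the coding sequence of these residues differs between genes at 50 of 234 bases for *Atp5g1* and at 53 for *Atp5g2*, each against *Atp5g3*. The stretches below, of 60 coding bases and the same 20 residues each, are shown because these differences are what lets a read be assigned to 1 of the 3 genes. Capitals mark the bases unlike *Atp5g3*, 16 in *Atp5g1* and 15 in *Atp5g2* (NCBIM37, coding strand):
Atp5g1: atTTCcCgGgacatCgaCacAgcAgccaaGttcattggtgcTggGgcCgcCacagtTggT
Atp5g2: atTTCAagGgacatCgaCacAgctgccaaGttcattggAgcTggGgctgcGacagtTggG
Atp5g3: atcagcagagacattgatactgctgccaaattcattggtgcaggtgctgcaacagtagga

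Nearly all reads on the subunit c genes were counted on *Atp5g3*. *Atp5g3* was at 149, 136 and 154 CPM in controls and 145, 166 and 148 CPM in mutants, or 209 CPM per kilobase on average. *Atp5g1* was at 2.28, 3.08 and 3.01 CPM against 1.98, 2.64 and 2.53 CPM, the largest negative change of complex V (log2 fold change -0.22, standard error 0.27, adjusted p = 0.868, edgeR). *Atp5g2* was at 0.536, 0.931 and 0.789 CPM in controls and 1.40, 0.880 and 0.999 CPM in mutants (log2 fold change 0.51, standard error 0.42, adjusted p = 0.788, edgeR). Per kilobase the means were 0.549 CPM for *Atp5g1* and 1.43 CPM for *Atp5g2*. Of the coding windows of *Atp5g1* and *Atp5g2*, 99.7% and 100% are also found elsewhere in the genome, against 0% for *Atp5g3*.

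**Figure D3:**
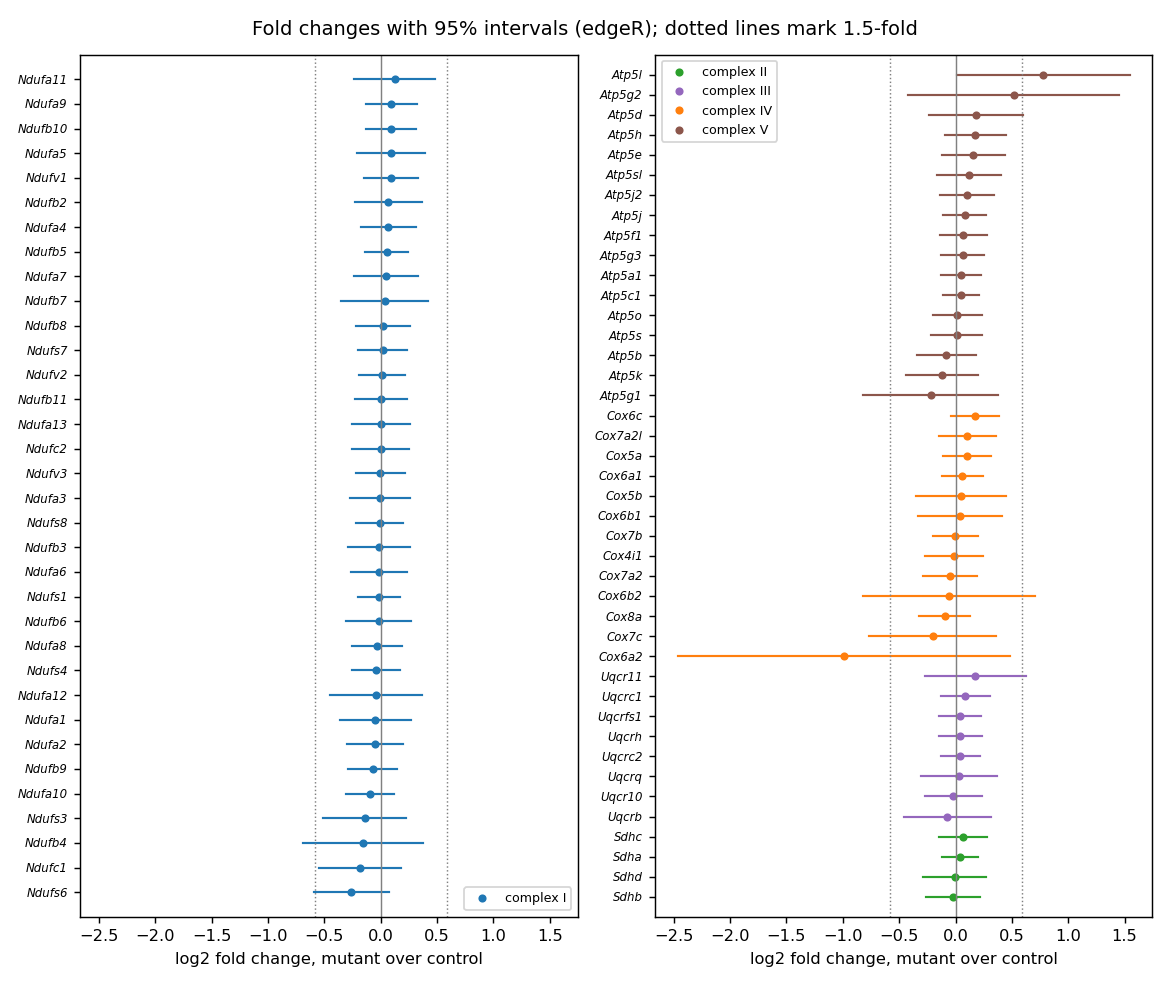
Points give the log2 fold change of mutant over control for the tested members (all but 1 of complex I), lines the 95% interval from edgeR's fit, and colours the complex, with dotted lines at 1.5-fold in each direction. Most intervals lie within the dotted lines, and the widest interval is that of *Cox6a2*, from -2.46 to 0.48.

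The intervals give the range of fold changes these samples allow for each gene. For 67 of the 77 tested members the 95% interval of the fold change lay wholly within 1.5-fold in either direction, namely for 33 of 35 in complex I, 4 of 4 in complex II, 7 of 8 in complex III, 10 of 13 in complex IV and 13 of 17 in complex V. Among the 65 members with a mean of 10 CPM or more this held for 63, and among the 12 below 10 CPM for 4. The interval of *Sdha* ran from 0.920-fold to 1.15-fold, that of *Cox4i1* from 0.828-fold to 1.18-fold and that of *Atp5b* from 0.788-fold to 1.13-fold. For *Atp5l* it ran from 1.01-fold to 2.92-fold, for *Atp5g2* from 0.748-fold to 2.73-fold and for *Cox6a2* from 0.181-fold to 1.40-fold. Changes of those sizes remain within the intervals of these genes.

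Fold changes of the members were also closer together than those of all tested genes. The absolute log2 fold change was under 0.1 in 58 of 77 members, or 75.3%, against 41.4% of all tested genes. The members were counted more deeply, with a median level of 33.7 CPM against 19.2 CPM. Among genes of 10 CPM or more the share was 83.1% of members and 51.5% of all 9806 genes, with median standard errors of 0.11 in both sets. These shares are descriptions, since the members of 1 complex are not independent of one another. The closeness was not particular to the members, whose log2 fold changes had quartiles of -0.035 and 0.069. In 19 genes of pyruvate dehydrogenase and the citric acid cycle the quartiles were -0.049 and 0.068. Those of 64 cytosolic ribosomal protein genes were wider, -0.063 and 0.16.

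Compared per kilobase of transcript, levels differed by orders of magnitude among members. The lowest included minor forms and members whose sequence is also found elsewhere in the genome. For each gene the first-numbered transcript was used where it is coding, or else the one with the longest coding part. Its length enters each level, as with *Atp5g1*, whose transcript has 4715 bases, of which 411 are coding. The highest mean levels were those of *Atp5b* (573 CPM per kilobase), *Atp5a1* (230), *Atp5g3* (209), *Ndufa4* (152), *Cox6a1* (150), *Cox4i1* (145), *Atp5c1* (142), *Sdha* (137), *Uqcrh* (129) and *Cox8a* (120). Medians by complex were close for complexes I (37.0), II (39.0), III (33.5) and V (34.8) and lower for complex IV (20.2), which holds the minor forms. *Ndufs5*, an accessory subunit of complex I, had 0 counts in all 6 samples. No other member was at 0 throughout.

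Small subunits often have processed copies in the genome, so the coding sequence of each member was cut into 50-base windows, the length of the reads, and each window was searched in the whole NCBIM37 genome. Under 10% of the windows were found elsewhere for 58 members, 10% to under 50% for 13 and 50% or more for 12. The median level was 40.4 CPM per kilobase in the first class, 28.4 in the second and 6.22 in the third. The 12 were *Cox6c*, *Cox7a2l*, *Atp5h*, *Ndufa12*, *Cox5b*, *Ndufs5*, *Uqcrb*, *Atp5g1*, *Cox7c*, *Ndufb4*, *Atp5g2* and *Atp5l*, and 4 of them, *Cox7c*, *Ndufb4*, *Atp5g2* and *Atp5l*, were at 100%. Low levels also occurred at 0%, in *Cox4i2*, *Cox6a2*, *Cox6b2*, *Cox7a1*, *Cox7b2*, *Cox8b* and *Cox8c*, all minor forms. Members outside both groups could be low too, as with *Ndufb2* (1.1%) at 3.23 CPM per kilobase and *Uqcrq* (0%) at 6.62. How the authors' mapping and counting treated reads with several places in the genome is not given in the sources used here, so the levels and changes of the 12 are uncertain. Leaving out these 12 members left the median log2 fold change at 0.016 over all members and at 0.065 in complex V.

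The first windows of *Ndufs5* and *Atp5l* show what such a read would look like, since each occurs letter for letter in a processed copy. The window of *Ndufs5* (on chromosome 4) recurs at chr16:42955744-42955793 on the plus strand of NCBIM37, in the pseudogene *BC002163*, which lies within *Zbtb20*. The window of *Atp5l* (on chromosome 9) recurs at chr11:97629374-97629423 on the plus strand, in the pseudogene *Atp5l2*. Each is given from the A of the start codon:
Ndufs5: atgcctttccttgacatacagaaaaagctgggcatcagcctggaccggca
Atp5l: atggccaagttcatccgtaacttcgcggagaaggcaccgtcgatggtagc

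Reads were counted at the copy of *Ndufs5*. *BC002163* had 189, 307 and 179 counts in the controls and 170, 362 and 314 in the mutants, or 12.7, 17.9 and 12.8 CPM against 14.0, 22.7 and 20.9 CPM, while *Ndufs5* itself had 0. The ranges overlapped, and the log2 fold change of 0.41 (standard error 0.20) did not pass the test (adjusted p = 0.60, edgeR). Which of the 2 loci these reads came from was not tested.

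**Figure D4:**
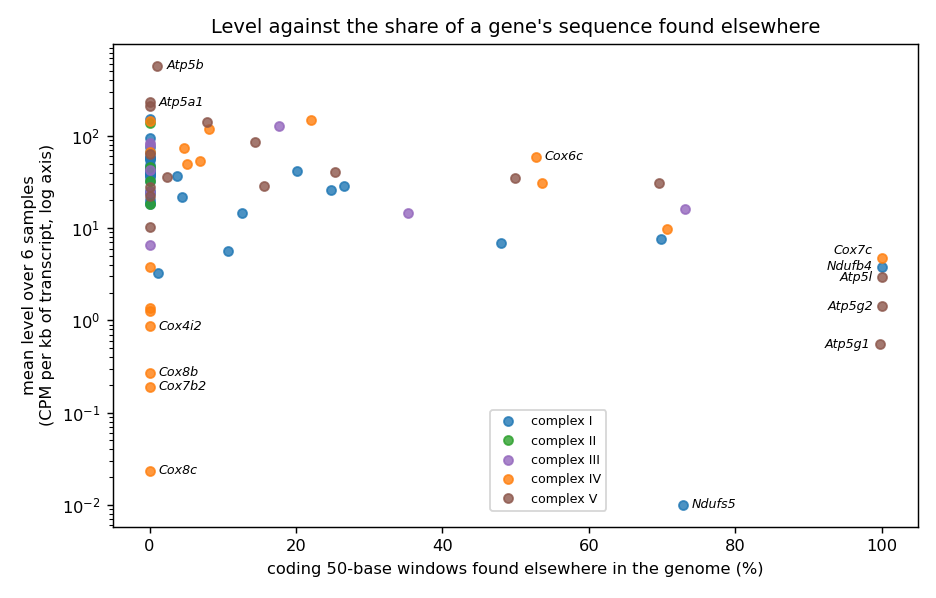
The horizontal axis gives the percentage of a member's coding 50-base windows found elsewhere in the genome, the vertical axis its mean level over the 6 samples in CPM per kilobase on a log axis, and colours the complex, with *Ndufs5* at 0 drawn at the bottom. The 4 members at 100% and *Atp5g1* at 99.7% lie between 0.549 and 4.79 CPM per kilobase. The members at 0% with levels up to that of *Cox6b2*, 3.83 CPM per kilobase, are minor forms of complex IV subunits. *Uqcrq*, also at 0%, is at 6.62 CPM per kilobase.

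Promoters were examined for short motifs of factors known to bind respiratory genes. RefSeq windows from 250 bases before to 50 bases after the start (GRCm38.p6) matched 69 of the 83 members and 27025 genes in all, and both strands were searched. No motif contains the letters of another. The NRF1 motif GCGCATGCG was found in 8 of 69 members (11.6%) and in 1.95% of all genes, and the YY1 motif AAGATGGCG in 8 (11.6%) and 1.64%. The GABPA motif ACTTCCGG was in 5 members (7.25%) against 4.31% of genes, the estrogen-related receptor motif TCAAGGTCA in 2 (2.90%) against 0.466%, and the TATA box TATAAA in 7 (10.1%) against 15.7%. The 27025 genes were not limited to the 15236 tested here, so these shares do not compare members with other expressed genes. A match is a stretch of letters and not a bound site.

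The NRF1 motif lay in the windows of *Atp5g2*, *Atp5k*, *Atp5l*, *Cox6a1*, *Ndufa8*, *Ndufa11*, *Uqcr11* and *Uqcrc1*. The 60 bases around it are shown for the 4 with a match well before the start. The same letters stand before genes counted at different levels, from a mean of 85.4 CPM for *Cox6a1* to 0.923 CPM for *Atp5g2*. The level of *Atp5g2* is uncertain, since 100% of its coding windows are also found elsewhere in the genome. Capitals mark the motif, which matched on both strands with an overlap, and each sequence is on the strand of its gene (GRCm38.p6), at chr5:115349086-115349145 on the minus strand for *Cox6a1*, chr17:56717677-56717736 on the plus strand for *Ndufa11*, chr5:108434415-108434474 on the minus strand for *Atp5k* and chr15:102671055-102671114 on the minus strand for *Atp5g2*:
Cox6a1: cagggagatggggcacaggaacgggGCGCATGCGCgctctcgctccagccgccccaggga
Ndufa11: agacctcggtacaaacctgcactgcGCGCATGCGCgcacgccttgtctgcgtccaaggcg
Atp5k: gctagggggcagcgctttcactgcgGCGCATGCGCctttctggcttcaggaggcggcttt
Atp5g2: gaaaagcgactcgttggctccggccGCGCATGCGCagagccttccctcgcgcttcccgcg

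*Uqcrc1*, the other core protein gene of complex III, was at 36.1, 40.2 and 41.8 CPM in controls and 43.3, 43.5 and 38.7 CPM in mutants. *Atp5k*, subunit e of the synthase, was at 12.7, 13.4 and 15.4 CPM against 11.5, 14.0 and 12.6 CPM. The log2 fold changes of the 8 genes with the motif ran from that of *Atp5k*, -0.12 (standard error 0.14), to that of *Atp5l*, 0.78, and none passed the test.

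Genes around the chain gave no call either, against 18 of 15236 tested genes (0.118%). At that share, 0 calls say little about lists of this length. At an unadjusted p under 0.05, 4.84% of all tested genes were higher in the mutants and 4.01% lower (edgeR). Of 4 tested genes of the chain that the symbols miss, *Cyc1*, *Cycs*, *Ndufab1* and *Atpif1*, 0 passed the test. Their median log2 fold change was -0.17. The largest change was in *Ndufab1*, at a mean of only 1.96 CPM (log2 fold change -0.57, standard error 0.34). *Cyc1*, the cytochrome of complex III, was at 76.7, 95.3 and 63.4 CPM in controls and 64.2, 76.8 and 63.1 CPM in mutants (log2 fold change -0.21, standard error 0.15, adjusted p = 0.752, edgeR). *Atpif1*, the inhibitor of the synthase, differed by 0.10 on that scale (standard error 0.092). Among 32 tested assembly factors 0 passed, with a median of -0.026, and 1 had an unadjusted p under 0.05. This was *Ndufaf5*, an assembly factor of complex I, at 25.1, 24.3 and 26.1 CPM against 33.8, 31.5 and 27.2 CPM (log2 fold change 0.29, standard error 0.11, adjusted p = 0.474, edgeR). *Ndufaf2*, another one, differed by 0.24 on the log2 scale (standard error 0.17). Of 21 regulators of mitochondrial biogenesis, 0 passed and 0 had an unadjusted p under 0.05 (median -0.060). The largest changes of this list above 5 CPM were 0.25 (standard error 0.19) for *Tfb1m*, a factor of mitochondrial transcription, and -0.23 (standard error 0.11) for *Gabpb1*, the partner of GABPA.

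Transcripts of genes for the fuel supply of the chain were also examined. In 19 genes of pyruvate dehydrogenase and the citric acid cycle all log2 fold changes lay between -0.096 and 0.10, and 0 had an unadjusted p under 0.05. The ends above 0 were *Idh2* and *Pdha1*, with 0.10 each. Glycolysis, with 18 tested genes, had a median of 0.031 and again 0 below that p. *Slc2a3*, the glucose transporter of neurons, differed by -0.22 (log2 scale, standard error 0.13) and *Aldoc*, an aldolase of astrocytes, by 0.19 (standard error 0.12). Of 16 mitochondrial carriers and uncoupling proteins, 0 passed the test, 2 had an unadjusted p under 0.05 in the upward direction and 1 downward. Over all tested genes, 4.84% had such a p upward and 4.01% downward. *Ucp2*, an uncoupling protein of the inner membrane, was at 168, 191 and 150 CPM in controls and 113, 138 and 147 CPM in mutants, all 3 below the controls (log2 fold change -0.35, standard error 0.12, adjusted p = 0.394, edgeR). *Mpc2*, a subunit of the mitochondrial pyruvate carrier, was at 31.7, 29.8 and 31.1 CPM against 37.5, 36.5 and 36.7 CPM (log2 fold change 0.26, standard error 0.090, adjusted p = 0.408, edgeR). Neither passed the test over all genes. The largest change of this list was in *Slc25a13*, at a mean of only 1.40 CPM, with every mutant above every control. It did not pass either (log2 fold change 1.11, standard error 0.40, adjusted p = 0.431, edgeR). The subunits encoded in mitochondrial DNA were not analysed here. Cytosolic ribosomal protein genes, another set of abundant housekeeping genes, had a median of 0.012 over 64 tested genes, close to the 0.017 of the members, and 0 passed the test.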

How the data were processed

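RNA of microdissected ARC was amplified with the Nugen Ovation system and sequenced as single-end reads. The authors mapped the reads and deposited raw counts per gene symbol for each sample. The submitters' processing notes name TopHat2 2.1.0, HTSeq 0.6, DESeq2 1.14.1 and build mm9, whereas the paper names NCBI37/mm10, and the counts carry no coordinates. Positions are those of GENCODE on NCBIM37, matched by symbol.

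Members and gene lists were chosen with earlier results of these data known. Samples were grouped by genotype from the labels. The whole table was fitted in edgeR 4.0.16 (R 4.3.3) with TMM, filterByExpr, robust dispersions and the two-sided quasi-likelihood test. Adjustment followed Benjamini and Hochberg over 15236 genes (threshold 0.05). Standard errors are the absolute log2 fold change over the square root of F. Levels are CPM after TMM, and log2 CPM used a prior count of 2. An exact permutation test of 3 against 3 cannot give a p under 0.1. DESeq2 1.42.0, limma 3.58.1 (voom), RLE factors, other filters, the replicate block and single samples left out were alternatives. The fit was checked on simulated counts. Total counts were 11792440 to 17877137 per sample, at which 3 counts are 0.175 to 0.248 CPM. The reads carry no molecular identifiers, so such floors cover counting error only. Chi-square per degree of freedom between samples was 6.90 to 31.2, so no 2 samples were within sampling noise.

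Coding windows were searched with BLAST 2.17.0 for identical copies outside the gene. Promoter sequences are from RefSeq (GRCm38.p6). Genes named were, per complex, the 2 with the highest mean CPM, the largest change in each direction and those separated between genotypes, all alternative subunit forms, all of complex II, those that failed the filter and, of each other list, those past the threshold and the 2 with the largest change above 5 CPM. Genes named for copies, promoters or tissue (*BC002163*, *Fezf1*, *Agrp*, *Pomc*, *Uqcrc1*, *Atp5k*, *Ndufb2*, *Uqcrq*) were chosen after their values were seen. *Ndufab1* and *Slc25a13*, below 5 CPM, were also named as the largest changes of their lists, and *Cycs*, *Atp5s* and *Atp5sl* to define lists. One gene of complex I that this rule names is not reported here.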

Additional observations from a re-analysis of the deposited data

How the results depend on the processing

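None of the 12 other fits (RLE factors, DESeq2, limma voom, filters of 1 count anywhere or of 10 counts in all samples, the replicate block and 6 with 1 sample left out) called a member, while calls over all genes ran from 7 (without mutant replicate 3) and 9 (without mutant replicate 2) to 46 (without control replicate 2), 106 (the filter of 1 count) and 191 (DESeq2), against 18. With the replicate block, 123 genes and 0 members were called, and the median over all members was 0.015. Same-numbered samples correlated at 0.28, 0.047 and -0.0026 in their deviations from the group means, so the numbers are not taken as pairs.

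Single samples moved values near 0. With 1 sample left out the median log2 fold change ran from -0.016 (without mutant replicate 2) to 0.061 over all members, from -0.034 to 0.023 in complex I, from -0.044 to 0.074 in complex II, from 0.021 to 0.067 in complex III and from 0.023 (without mutant replicate 2) to 0.095 in complex V, so that only complexes III and V kept their sign. In complex IV it ran from -0.064 to 0.092 (without mutant replicate 1), and it was 0.039 with DESeq2 and 0.024 with the filter of 10 counts. The sign also turned, with ranges of -0.19 to 0.041 for *Atp5b*, -0.087 to 0.11 for *Cox4i1*, -0.063 to 0.22 for *Cox6b1*, -0.24 to 0.26 for *Cox6b2*, -0.13 to 0.037 for *Cox7a2*, -0.081 to 0.023 for *Ndufs1*, -0.093 to 0.050 for *Sdhb*, -0.0071 to 0.12 for *Sdhc*, -0.13 to 0.097 for *Sdhd* and -0.0048 to 0.10 for *Uqcrh*. With plain CPM the shift of control replicate 2 was -0.083. Centring on all genes and assigning subunits by biochemistry left each median within the spread between replicates, as did leaving out members with copies, an alternative chosen after seeing the data. The causes were not tested. Intervals were within 1.5-fold for 4 of the 12 members below 10 CPM and for 63 of the 65 others.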

Other observations

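The cell type lists held larger log2 fold changes than most members, of which 58 of 77 were within 0.1 of 0. *Cldn11*, a tight junction gene of myelin, was at 7.91, 10.99 and 7.39 CPM in controls and 18.8, 22.2 and 22.6 CPM in mutants, and it rose (log2 fold change 1.27, standard error 0.17, adjusted p = 0.0313, edgeR), the only oligodendrocyte marker of 10 past the threshold. *Mobp*, another myelin gene, had 1.03 (standard error 0.31, adjusted p = 0.417, edgeR). In the microglia list 0 of 9 passed, with 0.70 (standard error 0.12, adjusted p = 0.0589, edgeR) for *C1qb* and 0.62 (standard error 0.099, adjusted p = 0.0567, edgeR) for *Cx3cr1*. In each of the lists of neurons (9 genes), astrocytes (8) and endothelial cells (8), 0 passed. The largest log2 fold changes there above 5 CPM were 0.50 for *Nefm* and 0.32 for *Nefl*, 0.28 for *Gfap* and -0.20 for *Aqp4*, and 0.46 for *Cdh5* and 0.45 for *Tek*. Among ribosomal protein genes they were 0.60 for *Rpl15* and 0.51 for *Rps4l*.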
